A study of Mus musculus with 18 samples.

Results

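The interferon response genes described here are 37 listed genes that interferons switch on or that sense the nucleic acids which start the response. They form a list of gene names, and 34 of them were read by a probe set with a single gene symbol, among 19938 genes on the array. Isg15 and Gbp2 were left out because their probe set also carries another symbol, and Ifi44 because no probe set was listed under it. By role, the 34 genes were 6 sensors and their helpers, 4 transcription factors, 1 gene of the ISG15 system, 14 antiviral effectors, 3 genes of antigen processing, 1 chemokine and 5 other induced genes.

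Interferons are secreted proteins that bind receptors on the cell surface and, through Janus kinases, bring STAT2 and IRF9 to a DNA element called the interferon-stimulated response element (ISRE). The genes behind that element include enzymes that cut or alter viral RNA, proteins that block viral entry or translation, and the sensors and factors that raise the response again. Fibroblasts answer interferon strongly, whereas mouse pluripotent cells are known for a weak interferon response.

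Transcripts were measured in 18 mouse samples with 1 Affymetrix gene array each. The arrays held #45-derived embryonic fibroblasts (MEFs) with 4-hydroxytamoxifen (4-OHT; 2 arrays) and without it (2), S33-MEFs with doxycycline (dox; 1) and without it (1), and #45-derived small intestinal organoids with 4-OHT (1) and without it (1). They also held 3 lines of reprogrammed colon tumour cells (RTCs), 2 RTC derivatives, Apc Min/Min embryonic stem cells (ESCs; 1), S33-ES cells with dox (1) and without it (1), and Apc Min/+ and Apc +/+ ESCs (1 each). RTCs are tumour cells made pluripotent with the methods used for induced pluripotent stem cells, and Min is a truncating mutation of Apc, a gene that restrains the Wnt pathway.

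Derivative #45 comes from RTC 1 and derivative #9 from RTC 3, and all the #45 organoids and fibroblasts go back to that 1 clone. Treatment with 4-OHT lasted 2 days, with 2 ug/ml in MEF medium and 1 uM in organoid medium, and no dox dose or time is given. What was altered in the derivatives, what 4-OHT switches and what S33 stands for are not stated in the sources used here, although the series text names Apc mutation and induced mutant beta-catenin as its subjects. The fibroblast arrays come as a first pair and a pair labelled (2), each with 1 treated and 1 untreated array. Nothing states that arrays of 1 group came from separate cultures, so p-values may measure technical spread.

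All values below are log2 intensities after quantile normalization of the 18 arrays together, and 1 unit is a 2-fold difference. They compare arrays for 1 gene and not 1 gene with another. The deposited median intensity ran from 142 to 317. Identical values in up to 19.2% of probe sets, in the arrays labelled (2), point to scaling in separate sets. The sources used here do not state such sets. Mean levels of marker genes matched the labels, although single markers did not always. The mean level of 8 pluripotency markers was 12.58 to 12.88 in the 10 pluripotent arrays, against 6.66 to 6.91 in the fibroblasts and organoids. The mean level of 10 fibroblast markers was 12.16 to 12.75 in MEFs, against 8.93 to 11.03 in pluripotent arrays and 7.72 to 7.79 in organoids. Pluripotent arrays thus held more fibroblast marker signal than organoids. Pdgfra was at 11.53 in Apc Min/Min ESCs and at 10.88 in the first MEF array without 4-OHT. The mean level of 9 intestinal markers was 12.38 to 12.47 in organoids and at most 7.47 elsewhere.

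Promoters of 27 of the 37 genes were found in RefSeq (assembly GRCm38.p6), as 31 windows of 300 bases that run 250 bases before and 50 bases after the transcription start. An ISRE, written as GAAANNGAAA or on the other strand as TTTCNNTTTC, stood in 13 of the 31 windows, against 3.44% of 32851 promoters of that length. The gamma-activated site TTCNNNGAA, which reads the same on both strands, stood in 8 of 31, against 8.3% of all. A match is a description of the letters, not a measured site. The sequences printed are the 250 bases before the start, 5′ to 3′ on the gene's strand and with ISRE letters in capitals. They are given for 4 genes whose window holds the element and for Xaf1 and Ifitm1, whose windows do not. Xaf1 and Ifitm1 differed between RTCs and ESCs in the test below, as did Oas1a, whose window holds the element. In Oas1a 2 ISRE matches overlap, and Ifit1 and Ifit3 hold 2 separate matches each.
Ifit1, chr19:34640639-34640888, plus strand: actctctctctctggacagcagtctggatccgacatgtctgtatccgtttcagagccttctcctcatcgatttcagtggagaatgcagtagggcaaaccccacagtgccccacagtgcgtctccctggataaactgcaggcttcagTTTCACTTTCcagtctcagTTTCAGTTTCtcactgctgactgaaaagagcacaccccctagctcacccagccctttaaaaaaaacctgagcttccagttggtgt
Ifit3, chr19:34583279-34583528, plus strand: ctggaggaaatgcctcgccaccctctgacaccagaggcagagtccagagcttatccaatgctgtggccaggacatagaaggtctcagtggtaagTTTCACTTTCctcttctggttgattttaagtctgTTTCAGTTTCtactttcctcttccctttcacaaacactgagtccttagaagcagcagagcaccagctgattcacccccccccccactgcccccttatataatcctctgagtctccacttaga
Oas1a, chr5:120907526-120907775, minus strand: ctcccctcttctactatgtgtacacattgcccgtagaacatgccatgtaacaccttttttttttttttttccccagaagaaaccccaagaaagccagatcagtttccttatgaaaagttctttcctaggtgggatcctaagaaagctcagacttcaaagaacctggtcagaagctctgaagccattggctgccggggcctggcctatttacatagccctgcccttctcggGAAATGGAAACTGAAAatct
Cxcl10, chr5:92348890-92349139, minus strand: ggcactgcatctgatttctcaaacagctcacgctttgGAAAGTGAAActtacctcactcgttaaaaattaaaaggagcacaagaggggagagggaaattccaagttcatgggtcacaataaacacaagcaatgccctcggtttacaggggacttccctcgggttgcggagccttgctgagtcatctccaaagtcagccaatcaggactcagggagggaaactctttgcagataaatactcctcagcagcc
Xaf1, chr11:72301379-72301628, plus strand: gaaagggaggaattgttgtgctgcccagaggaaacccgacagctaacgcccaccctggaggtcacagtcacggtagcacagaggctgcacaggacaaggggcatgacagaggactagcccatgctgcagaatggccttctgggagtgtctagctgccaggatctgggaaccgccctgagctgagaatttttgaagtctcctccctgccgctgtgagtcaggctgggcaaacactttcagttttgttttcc
Ifitm1, chr7:140967826-140968075, plus strand: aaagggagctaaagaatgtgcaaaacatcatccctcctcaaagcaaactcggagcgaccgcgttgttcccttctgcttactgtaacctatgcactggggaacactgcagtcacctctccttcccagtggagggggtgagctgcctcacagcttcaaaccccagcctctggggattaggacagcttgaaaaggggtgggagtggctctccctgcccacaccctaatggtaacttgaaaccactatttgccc

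The genes were high in the #45 fibroblasts and low almost everywhere else. In 30 of the 34, the highest of the 18 arrays was a #45 MEF array labelled (2), and in 27 of these it was the one without 4-OHT. The other 4 were Sting1, highest in S33-MEFs without dox, Trim25, highest in RTC 2, Irf1, highest in RTC 3, and Ifitm1, highest in Apc Min/+ ESCs. The share of all genes that peak in the arrays labelled (2) was not counted.

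**Figure D1:**
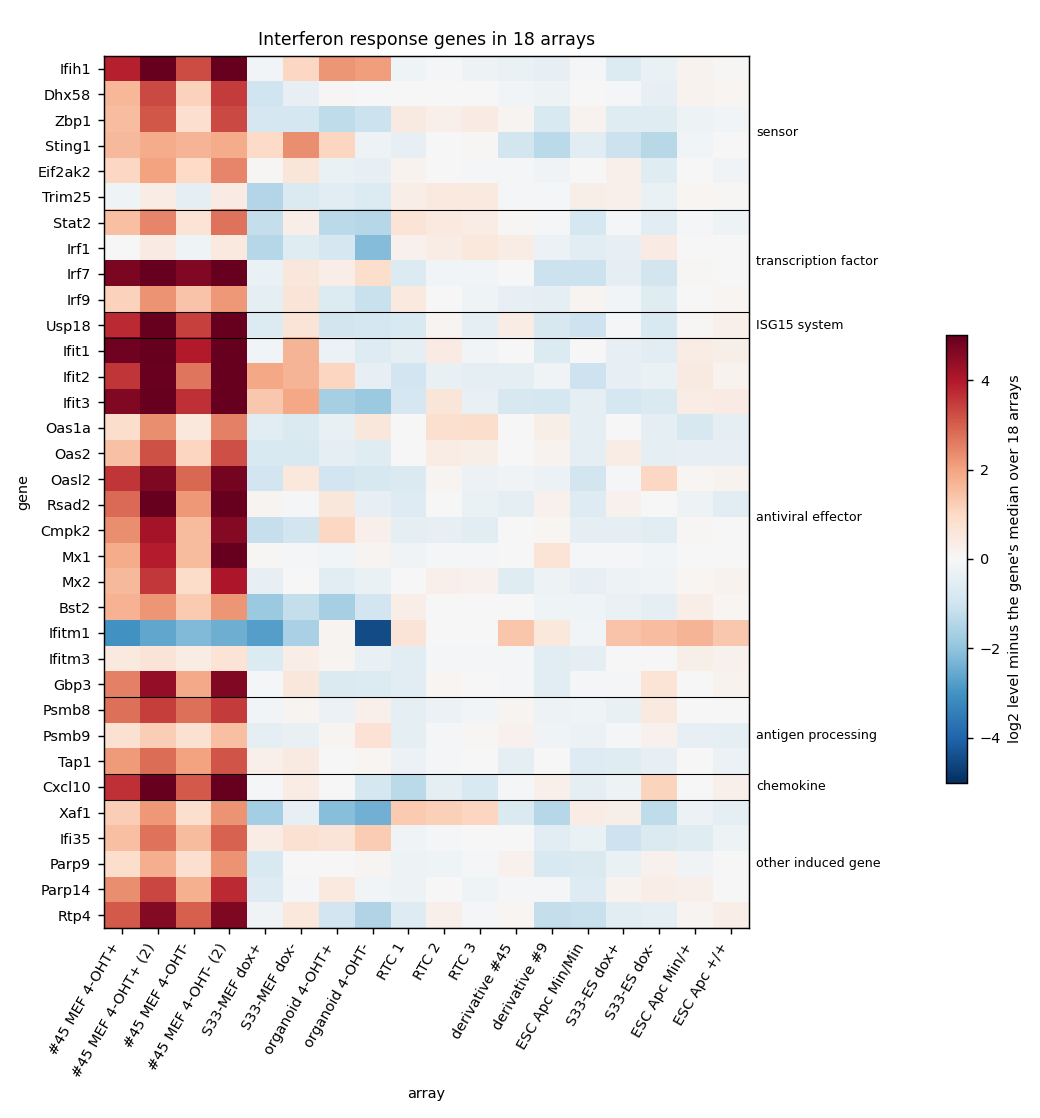
Log2 level of each of the 34 genes (rows, grouped by role) in each of the 18 arrays (columns), minus that gene's median over the 18 arrays; colours end at 5 in either direction, so larger differences share the last colour. The 4 #45 MEF columns at the left are red for nearly every gene and deepest in the arrays labelled (2), and Ifitm1 runs the other way.

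All 4 #45 MEF arrays lay above all 10 pluripotent arrays for 28 of the 34 genes, where the same held for 20.3% of all genes. The median difference of the means was 2.59 over the 34 genes and 0.05 over all genes. Ifitm1 lay below in all 4, as did 16.4% of all genes, and Trim25, Stat2, Irf1, Oas1a and Xaf1 overlapped.

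Among the antiviral effectors, Ifit1, which binds viral RNA that lacks host cap marks, was at 12.28 and 13.23 in #45 MEFs with 4-OHT and at 11.40 and 13.39 without it. In pluripotent arrays Ifit1 was between 6.76 and 7.86. Every #45 MEF array was thus well above every pluripotent one. Ifit3, a partner of Ifit1, was at 12.37 and 13.26 in #45 MEFs with 4-OHT and at 11.38 and 13.44 without it, against 6.85 to 8.33 in pluripotent arrays. Mx1, a GTPase that blocks influenza viruses in mice, was at 7.20 and 9.28 with 4-OHT and at 6.94 and 10.75 without it, against 5.20 to 6.06 in pluripotent arrays. Of the 34 genes, Mx1 had the widest gap between the #45 pairs without 4-OHT, at 3.81.

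Among the regulators, Irf7, the factor that amplifies type I interferon production, was at 12.82 and 13.32 in #45 MEFs with 4-OHT and at 12.71 and 13.24 without it. In pluripotent arrays Irf7 was between 7.03 and 8.16. Its 4 fibroblast values lay closer together than those of Ifit1, Ifit3 or Mx1. Usp18, the protease that takes ISG15 off proteins and damps receptor signalling, was at 12.20 and 13.54 with 4-OHT and at 11.89 and 13.62 without it, against 7.41 to 8.81 in pluripotent arrays. Cxcl10, a chemokine that draws T cells, was at 11.03 and 13.35 with 4-OHT and at 10.46 and 13.72 without it, against 6.05 to 8.51 in pluripotent arrays. For both genes the groups did not overlap.

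**Figure D2:**
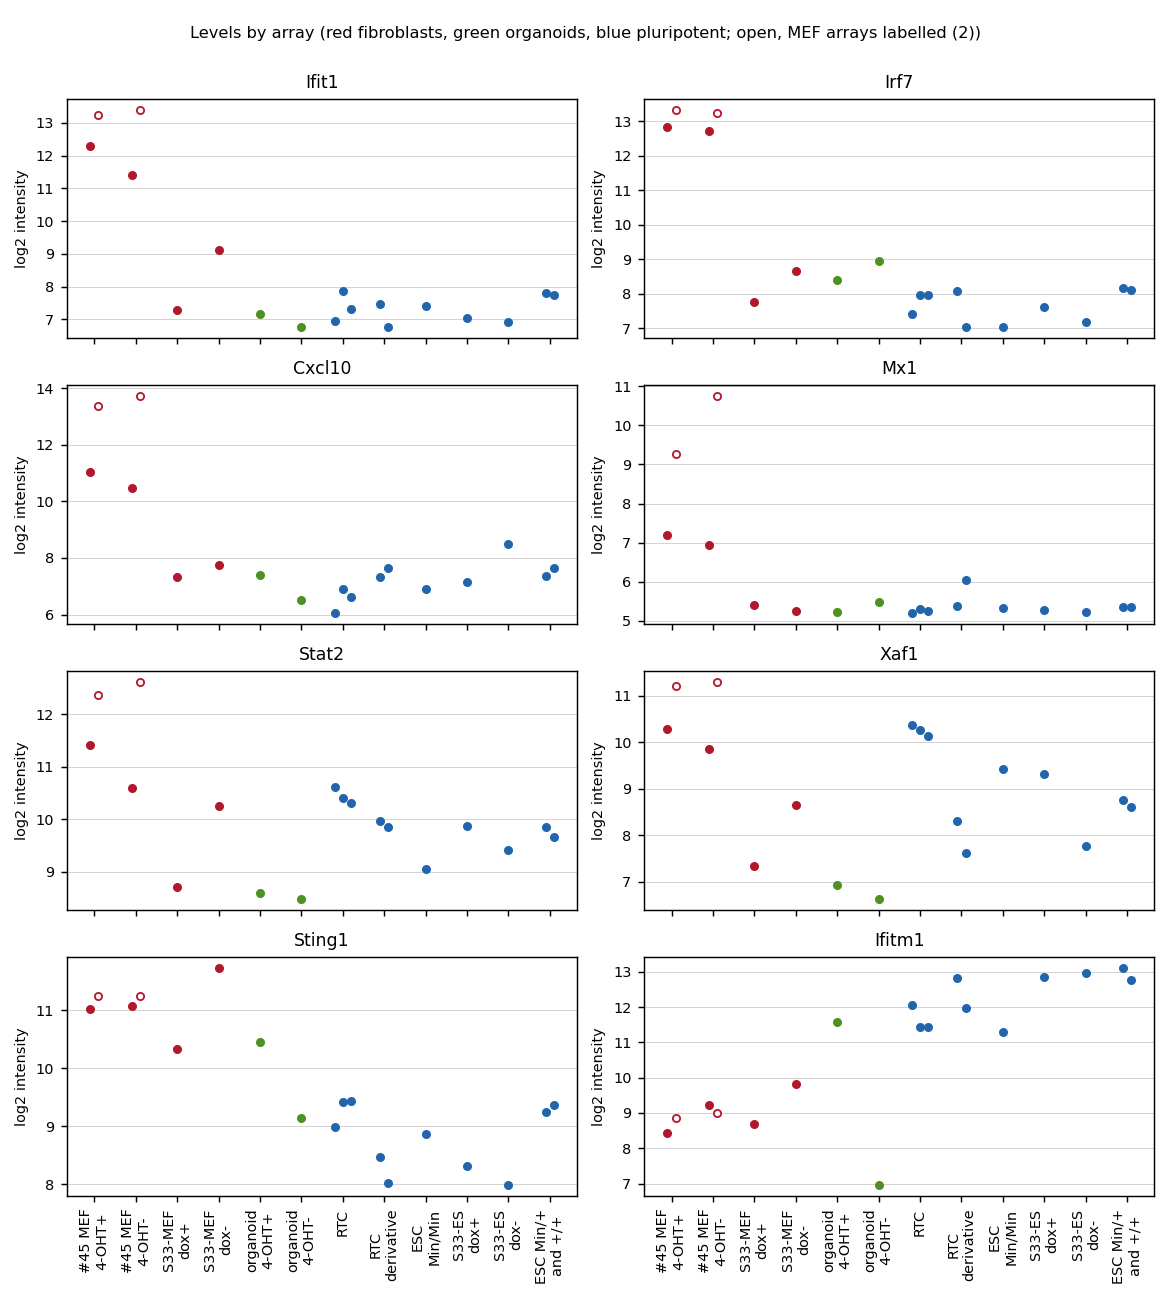
Log2 intensity (vertical axis) of 8 genes in every array, by group (horizontal axis); each point is 1 array, red for fibroblasts, green for organoids and blue for pluripotent cells, with open points for the MEF arrays labelled (2). Ifit1, Irf7, Cxcl10 and Mx1 stand apart in the #45 MEFs, Xaf1 is high in the 3 RTC arrays as well, and Ifitm1 is at 6.96 in organoids without 4-OHT and at 11.58 with it.

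The S33-MEFs did not share these levels. Both S33-MEF arrays lay above all 10 pluripotent arrays for 5 of the 34 genes, against 22.3% of all genes, and below them for 8, against 17.5% of all genes. The median difference was -0.04. The genes above were Sting1, Ifit2, Ifit3, Tap1 and Ifi35, and the genes below included Dhx58, Zbp1, Oas2, Cmpk2 and Bst2. All 4 #45 MEF arrays lay above both S33-MEF arrays for 32 of the 34 genes, against 17.5% of all genes, with a median difference of 3.02. Sting1 and Ifitm1 were the exceptions, and 0 genes lay below in all 4, against 20.5% of all genes.

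Fibroblast markers had a mean of 12.16 to 12.42 in #45 MEFs and 12.57 to 12.75 in S33-MEFs. Immune cell markers, 11 of 12 of which were on the array, had summed levels of 84.5 to 105.3 in #45 MEFs, against 74.5 to 75.1 in S33-MEFs, and their part in the difference was not tested. In bulk samples such as these, fewer cells of a type and less RNA per cell cannot be told apart.

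The #45 fibroblast pairs also differed from each other. Both arrays labelled (2) lay above both arrays of the first pair for 33 of the 34 genes, against 26.4% of all genes, and Ifitm1 overlapped. Without 4-OHT, the array labelled (2) exceeded the first by a median of 1.83 and by at least 2-fold for 24 genes, against 1.05% of all genes. With 4-OHT the median was 1.05 and 18 genes were at least 2-fold higher, against 0.752% of all genes. These are differences between single arrays and have no test. Immune markers ran the other way, with means of 7.75 without 4-OHT and 7.68 with it in the arrays labelled (2), against 9.57 and 9.27 in the first pair. The arrays labelled (2) share identical deposited values with each other and with derivative #9, and a possible scaling set and the pair cannot be told apart.

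Untreated fibroblasts were then tested against ESCs, with the 2 #45 MEF arrays without 4-OHT and the S33-MEF array without dox on one side and Apc +/+, Apc Min/+ and S33-ES without dox on the other (3 against 3). With limma and an adjusted p under 0.05 over all genes, 11 of the 34 genes (32.4%) were higher in fibroblasts, against 20.7% of all genes, and 1 was lower, against 20% of all genes. The median difference was 1.78 over the 34 and 0.06 over all. The spread within the fibroblast group, in which S33-MEFs were low, entered the test.

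Of the sensors, Sting1, the endoplasmic reticulum adaptor of cytosolic DNA sensing, was at 11.07, 11.24 and 11.73 in MEFs, against 9.36, 9.24 and 7.99 in ESCs. It rose by 2.49 ± 0.37 (SE, limma adjusted p = 0.00169), and the S33-MEF array was highest. Ifih1, which detects long double-stranded RNA, rose by 3.21 ± 0.92 (limma adjusted p = 0.0278). Eif2ak2, a kinase that stops translation on double-stranded RNA, rose by 1.61 ± 0.45 (limma adjusted p = 0.0248).

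Of the factors, Irf7 rose by 3.72 ± 1.11 (limma adjusted p = 0.0326) and Irf9, a DNA-binding partner of STAT2, by 1.60 ± 0.38 (adjusted p = 0.0134). Usp18 rose by 3.22 ± 1.02 (limma adjusted p = 0.0402). Stat2 differed by 1.51 ± 0.57, short of the threshold at an adjusted p of 0.0748.

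Of the effectors, Ifit1 rose 14-fold, by 3.81 ± 0.96 (limma adjusted p = 0.0161). Ifit3 rose by 3.73 ± 0.87 (adjusted p = 0.0121) and Ifit2 by 3.17 ± 0.87 (adjusted p = 0.0232), both by limma. Tap1, which carries peptides into the endoplasmic reticulum for class I presentation, rose by 2.09 ± 0.61 (adjusted p = 0.0288), and Ifi35 by 2.29 ± 0.50 (adjusted p = 0.00918).

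Ifitm1, a membrane protein that hinders viral fusion, ran the other way. It was at 9.22, 9.00 and 9.81 in MEFs, against 12.78, 13.11 and 12.97 in ESCs. It fell by 3.61 on the log2 scale (SE 0.22, limma adjusted p = 4.47e-05), and the groups were far apart. A second Ifitm1 probe set was at 8.06, 8.08 and 8.80 in the same MEF arrays, against 12.29, 12.39 and 12.46 in the ESC arrays. Ifitm3, its neighbour in the same family, was at 13.45 to 13.78 in MEFs, against 13.11 to 13.40 in ESCs.

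Without the S33-MEF array, 30 of the 34 genes were called, against 39.1% of all genes in that fit. Without Apc +/+, Apc Min/+ or S33-ES, 6 of the 34 were called each time, against 35.1%, 33.5% and 43.2% of all genes in that order. Without the #45 MEF array of the first pair 8 were called, against 34% of all genes, and without the one labelled (2) 11, against 33.2%. Sting1, Irf9, Ifit1, Ifit3, Ifi35 and Ifitm1 were called whichever array was left out.

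Around the 34 genes, 72 of 81 further listed pathway genes were on the array. In the same test 26 of these (36.1%) were higher in fibroblasts, against 20.7% of all genes, and 3 (4.17%) were lower, against 20%. None of 7 interferon genes was called. Ifnb1, the gene of interferon beta, was at 5.92 to 6.29 in the 6 MEF arrays, against 5.71 to 6.46 in pluripotent arrays, so the ranges overlapped. Of 6 receptor genes, 5 were higher, with Ifnar1 and Ifnar2, the chains of the type I receptor, up by 0.82 ± 0.11 (limma adjusted p = 0.000986) and 1.14 ± 0.21 (adjusted p = 0.00381). Jak1, Jak2 and Stat3 were the signalling genes called, 3 of 4. The 7 listed genes that restrain the response were mixed, with Socs1 called higher at 1.24, Socs3, Ptpn2 and Rnaseh2a called lower at -1.16, -1.13 and -1.47, and a median of 0.61.

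The RTCs differed from ESCs in few of the genes. Against the same 3 ESC arrays, 5 of the 34 genes were higher, against 2.02% of all genes, and 1 was lower, against 1.99%. The median difference was -0.05, against -0.02 over all genes. On the values as deposited 2 genes were higher and 1 lower, with 1.89% of all genes called in either direction. With median centring 3 were higher and 2 lower, with 4.61% of all genes called, against 4.01% in the fit reported.

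Xaf1, an antagonist of the caspase inhibitor XIAP, was at 10.37, 10.26 and 10.14 in RTCs, against 8.61, 8.77 and 7.77 in ESCs. It rose by 1.88 ± 0.25 (limma adjusted p = 0.00702), and the lowest RTC array was well above the highest ESC array. Oas1a, which makes the 2-5A messenger that activates RNase L, was at 8.44, 9.21 and 9.28 in RTCs, against 7.92, 7.62 and 7.96 in ESCs. It rose by 1.14 ± 0.23 (limma adjusted p = 0.0362). Its relative Oas2 rose by 0.64 ± 0.14 (adjusted p = 0.048). Stat2, at 10.61, 10.40 and 10.31 in RTCs, against 9.67, 9.85 and 9.41 in ESCs, rose by 0.80 ± 0.15 (limma adjusted p = 0.031). Zbp1, a sensor of Z-form nucleic acids that can trigger necroptosis, rose by 0.73 ± 0.15 (adjusted p = 0.042). The RTC and ESC arrays did not overlap for these 5 genes, but the test had picked them, so this adds no support.

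Ifitm1 was at 12.06, 11.43 and 11.43 in RTCs, against 12.78, 13.11 and 12.97 in ESCs, and fell by 1.31 (SE 0.20, limma adjusted p = 0.0115). Cxcl10 was at 6.05, 6.89 and 6.63 in RTCs, against 7.66, 7.38 and 8.51 in ESCs. Its difference of -1.33 ± 0.32 missed the threshold (limma adjusted p = 0.0607). The groups did not overlap, but the share of all genes without overlap was not counted, so this adds no support. Oasl2 differed by -0.75 ± 0.30 and was not called either (adjusted p = 0.232). Genes that were high in #45 fibroblasts were mostly not called here. Ifit1 differed by -0.12 ± 0.30, Irf7 by -0.04 ± 0.29 and Mx1 by -0.07 ± 0.12, and none was called.

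Only Xaf1 was called whichever array was left out. The count was 4 without RTC 1, 1 without RTC 2 or RTC 3, 2 without Apc +/+, 1 without Apc Min/+ and 6 without S33-ES. Calls over all genes moved too, at 648, 293, 246, 343, 288 and 1227 in that order, against 799 with every array. Immune markers had summed levels of 84.7 to 94.2 in RTCs, against 78.2 to 80.3 in these ESCs. Of this list, Cd3g, Cd3e, Lyz2 and Tyrobp were called higher by limma. Ptprc, Cd68, Csf1r, Itgam, Adgre1, Cd14 and Nkg7 were not called, with differences from 0.0 for Nkg7 to 1.64 for Adgre1. Fibroblast markers had summed levels of 93.5 to 101.6 in RTCs, against 95.6 to 106.9 in ESCs. The part of these markers in the 6 differences was not tested. Of the 72 further pathway genes, 0 were higher, against 2.02% of all genes. Of the same 72, 3 (4.17%) were lower, against 1.99%, namely Tor3a (-1.20), Gbp7 (-0.71) and Pml (-0.68).

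**Figure D3:**
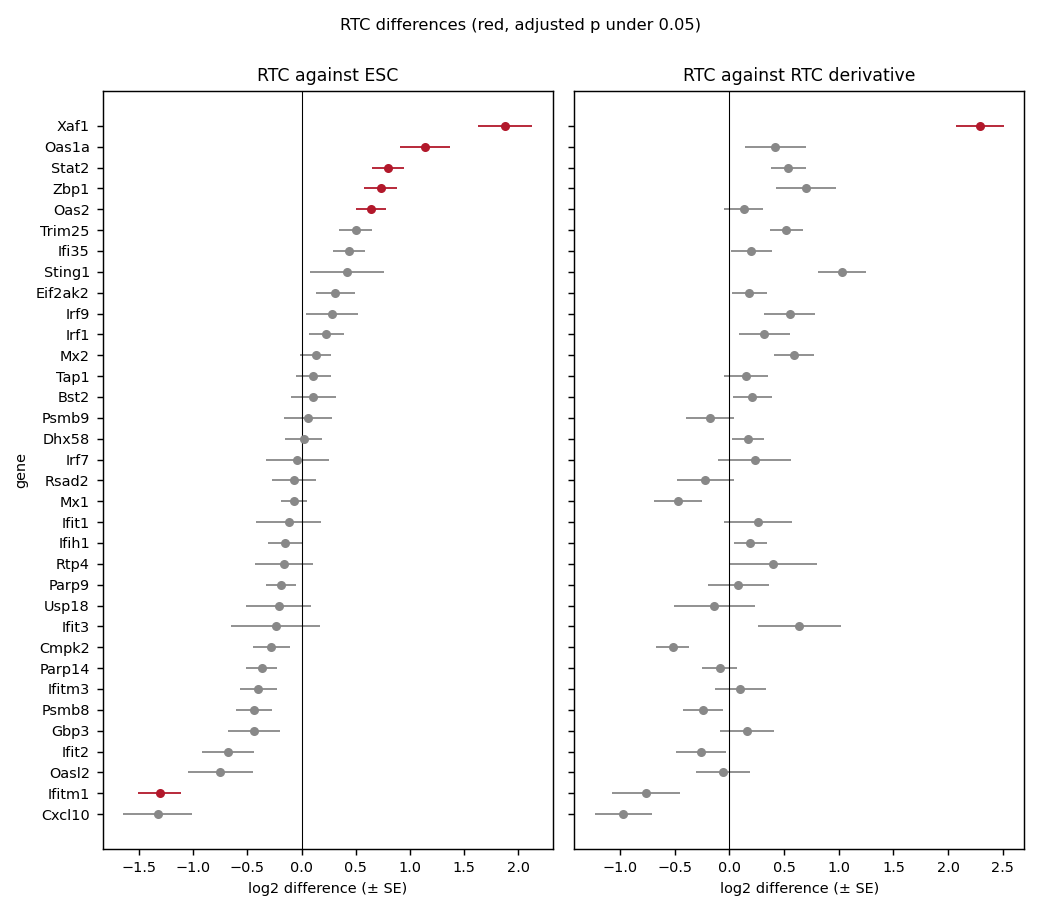
Log2 difference (horizontal axis, point with SE bar) of each of the 34 genes for RTCs against ESCs (left) and RTCs against RTC derivatives (right); genes are in the order of the left panel, and red marks a limma adjusted p under 0.05. Xaf1 is red in both panels, and 6 genes are red on the left against 1 on the right.

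Against their derivatives, the 3 RTC arrays differed in Xaf1 alone among the 34 genes. It was higher, as were 0.497% of all genes, and 0 genes of the list were lower, against 0.466% of all genes. In derivatives #45 and #9 Xaf1 was at 8.31 and 7.63, so that both lay below all 3 RTC arrays. The difference was 2.29 ± 0.22 (limma adjusted p = 0.0088). It was 2.06 between RTC 1 and its own derivative #45 and 2.51 between RTC 3 and #9. With line of origin as a block it was 2.28 ± 0.23 (adjusted p = 0.0146). Leaving out RTC 1, RTC 2 or RTC 3 ended the call, with limma adjusted p-values of 0.0574, 0.0536 and 0.0808 in that order. The Xaf1 differences in these fits were 2.23, 2.28 and 2.34. Calls over all genes fell to 49, 23 and 14, from 192 with every array. Zbp1 differed by 0.70 and was not called (adjusted p = 0.356). Its difference was 1.17 without derivative #45 and 0.24 without #9. In these last fits the derivatives are 1 array, which is assumed to vary as the RTC arrays do. Both RTC comparisons use the same 3 RTC arrays, so the Xaf1 values are given side by side and not as separate support.

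Sting1 was at 8.99, 9.42 and 9.43 in RTCs, against 8.47 and 8.03 in the derivatives. Its difference of 1.03 ± 0.22 was not called (limma adjusted p = 0.0914). The arrays did not overlap, but the share of all genes without overlap was not counted, so this adds no support. Cxcl10 differed by -0.97 (adjusted p = 0.183), Ifitm1 by -0.76 (adjusted p = 0.386) and Ifit3 by 0.64 (adjusted p = 0.584). Of the 72 further pathway genes, 0 were called (limma).

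Treatment of the #45 fibroblasts with 4-OHT gave no call. Of the 34 genes 0 passed, as did 0% of all genes. At an unadjusted p under 0.05, limma gave 0 of the 34 genes and 2.96% of all genes. This fit ignores the pairs, so the gap between them enters the errors of these genes. The 0 therefore cannot show a lack of response. With the pair number as a block, limma called 0 of the 34 genes and 31 of all genes. The widest fitted differences were -0.60 for Mx1, -0.48 for Ifitm1, 0.40 for Ifit3, 0.36 for Ifit1, 0.29 for Stat2 and 0.28 for Oasl2. The pairs went in opposite directions: 27 of the 34 genes were higher with 4-OHT in the first pair and lower with it in the pair labelled (2), against 18% of all genes.

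With minus without 4-OHT, Ifit3 differed by 0.99 in the first pair and by -0.18 in the pair labelled (2). Ifit2 differed by 0.93 in the first pair and by -0.51 in the other. Mx1 differed by 0.26 in the first pair and by -1.46 in the other, which was the widest. For these 3 genes the untreated array of the first pair was the lowest of the 4 #45 MEF arrays and the untreated array labelled (2) the highest. Fibroblast markers had means of 12.16 and 12.17 with 4-OHT, against 12.40 and 12.42 without it.

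**Figure D4:**
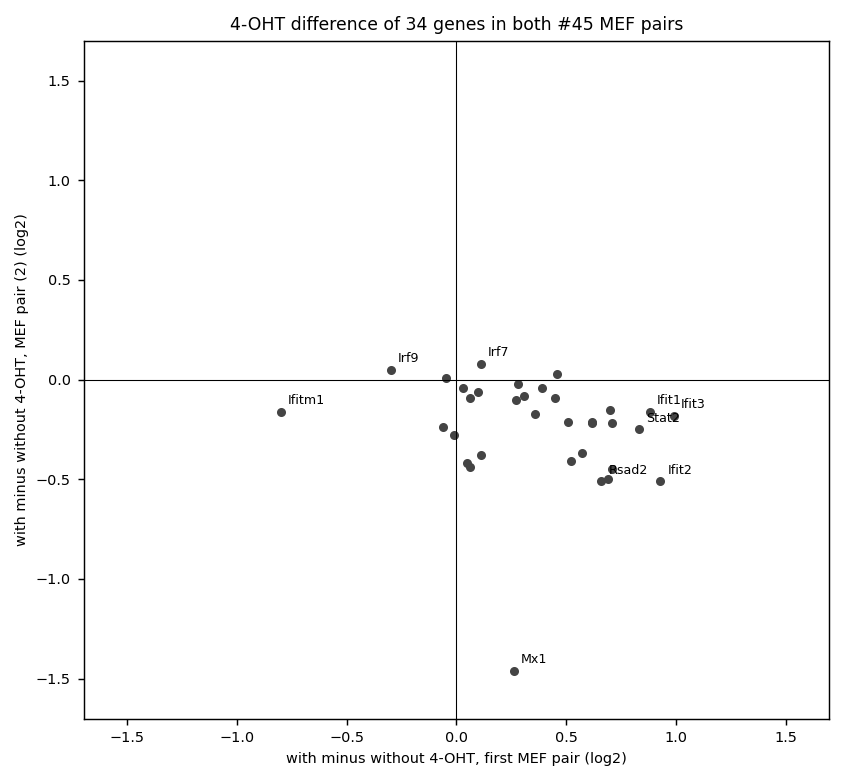
Log2 difference with minus without 4-OHT of each of the 34 genes in the first #45 MEF pair (horizontal axis) and in the pair labelled (2) (vertical axis); each point is 1 gene. Of the 34 points, 27 lie in the lower right of the plot, with Mx1 lowest at -1.46, and Ifitm1 lies at the left at -0.80.

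In the organoids 1 array had 4-OHT and 1 did not, so that no test could be made. Organoids as a group lay above all pluripotent arrays for 4 genes, against 20.2% of all genes, and below them for 10, against 18.4%. The 4 were Ifih1, Irf7, Cmpk2 and Ifi35, and the 10 included Stat2, Irf9, Ifit3 and Xaf1. With 4-OHT, 4 genes were at least 2-fold higher, against 1.7% of all genes, and 0 were at least 2-fold lower, against 0.627%. Ifitm1 was at 11.58 with 4-OHT and at 6.96 without it, a difference of 4.62, and its second probe set was at 11.00 with 4-OHT and 7.06 without it. Ifit2 was at 8.08 with 4-OHT and 6.58 without it, and Sting1 was at 10.46 and 9.15. Rsad2 and Oas1a followed below 2-fold, at 0.95 and -0.93.

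Irf1, a factor that also drives class I genes, was at 9.12 with 4-OHT and 7.79 without it. A second Irf1 probe set did not show this, at 7.36 with 4-OHT and 7.59 without it, and over all 18 arrays it stayed between 7.20 and 7.87. Ifit2 differed by 0.67 and Irf1 by 0.92 on the values as deposited, where all genes shifted by a median of -0.45 and the list held 2 genes at least 2-fold higher and 3 lower. With the mean of its probe sets Irf1 differed by 0.55.

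In S33-MEFs, where each arm had 1 array and no test could be made, the genes were mostly lower with dox. With dox, 10 of the 34 genes were at least 2-fold lower, against 2.26% of all genes, and 0 were at least 2-fold higher, against 1.49%. The median difference was -0.62, against 0.02 over all genes, and 28 of the 34 values were negative.

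Ifit1 was at 7.28 with dox and 9.12 without it, a difference of -1.84. Stat2 was at 8.71 with dox and 10.25 without it, and Irf9 at 9.13 and 10.23. Stat2 and Irf9 belong to the complex that binds the ISRE, and both were at least 2-fold lower with dox. Whether their levels bear on those of the other genes was not tested. Oasl2 was at 7.79 with dox and 9.30 without it, Usp18 at 7.79 and 9.11, and Ifih1 at 6.95 and 8.12. Sting1 was at 10.34 with dox and 11.73 without it, and Xaf1 at 7.35 and 8.65. Ifitm1 and Ifitm3 differed by -1.12 and -1.04. Ifit2, Oas1a, Rsad2, Mx1, Zbp1 and Oas2 did not share the direction, at 0.26, 0.22, 0.19, 0.16, 0.04 and 0.02. Fibroblast markers had a mean of 12.57 with dox and 12.75 without it, and immune markers of 6.77 and 6.82.

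Of the 72 further pathway genes, 5 (6.94%) were at least 2-fold lower with dox and 0 higher in S33-MEFs, against 2.26% and 1.49% of all genes. The 5 were Samd9l (-1.26), Gbp7 (-1.13), Ccl2 (-1.09), Nmi (-1.06) and Lgals3bp (-1.04). The median of these 72 was -0.04.

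In S33-ES cells there was again 1 array per arm and no test. With dox 1 gene was at least 2-fold higher, against 0.632% of all genes, and 2 were at least 2-fold lower, against 1.32%. Xaf1 was at 9.33 with dox and 7.77 without it. Cxcl10 was at 7.14 with dox and 8.51 without it, and Oasl2 at 8.65 and 9.80. Psmb8, Eif2ak2 and Irf1 followed below 2-fold, at -0.86, 0.85 and -0.84. The median difference of the 34 was 0.00. Fibroblast markers had a mean of 8.93 with dox and 9.56 without it, and their part was not tested.

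**Figure D5:**
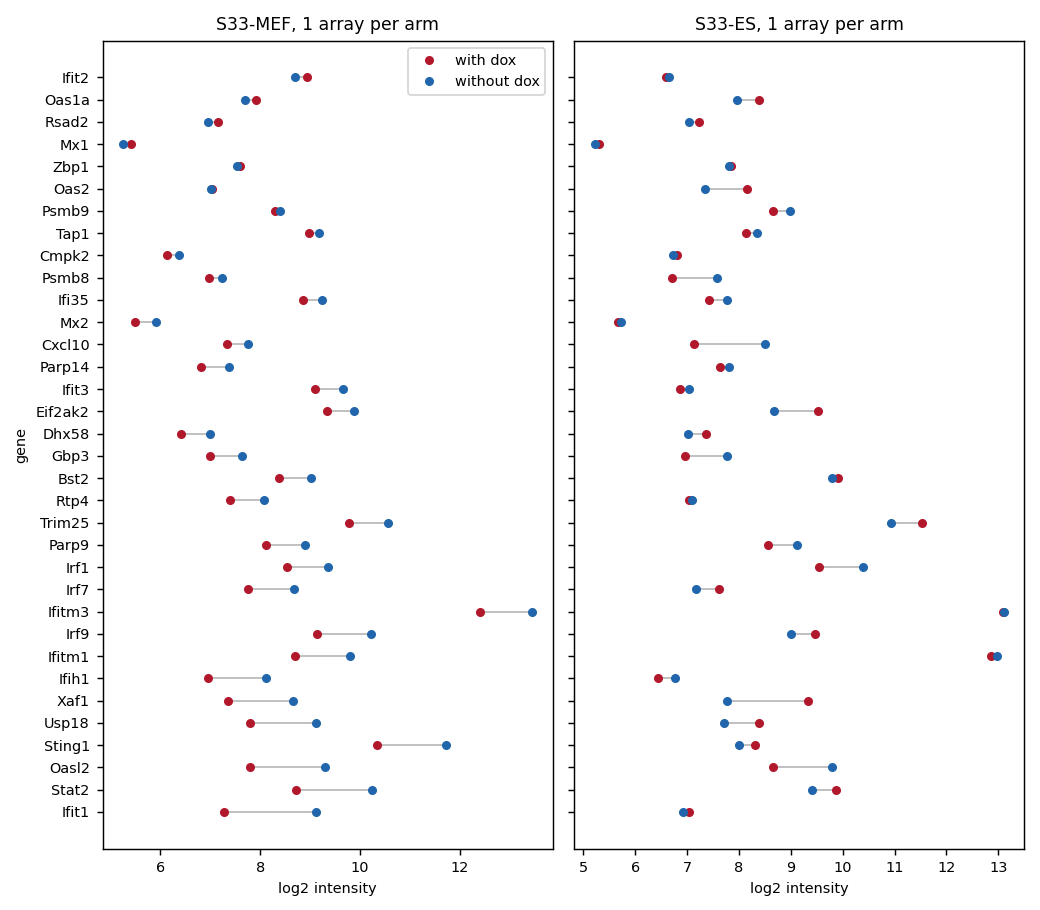
Log2 intensity (horizontal axis) of each of the 34 genes (vertical axis, in order of the S33-MEF difference) with dox (red) and without dox (blue) in S33-MEFs (left) and S33-ES cells (right), 1 array per arm, with a grey line joining the arms. In S33-MEFs the red point lies left of the blue one for 28 of 34 genes, and in S33-ES cells Xaf1 has the widest gap, at 1.56 and higher with dox.

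Apc Min/Min ESCs, compared as 1 array with the 1 Apc +/+ array, had 6 genes at least 2-fold lower, against 3.55% of all genes, and 0 at least 2-fold higher, against 2.86%. The median difference was -0.36, against -0.06 over all genes. Ifitm1 was at 11.28 in Min/Min and 12.78 in +/+ cells, and Rtp4, a Golgi chaperone that interferon induces, was at 6.43 and 7.89. Usp18 was at 7.41 in Min/Min and 8.72 in +/+ cells, and Irf7 at 7.03 and 8.12. Ifit2 and Oasl2 were the other genes past the limit, by -1.17 and -1.09. Xaf1 was at 9.42 in Min/Min and 8.61 in +/+ cells, which is less than 2-fold. Immune markers had a mean of 7.68 in Min/Min and 7.11 in +/+ cells. Fibroblast markers had a mean of 11.03 in Min/Min and 10.58 in +/+ cells, and the part of these markers was not tested. The labels mention a separate medium for some Min/Min cells, and medium and genotype cannot be told apart here.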

How the data were processed

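Gene expression was read on 18 Affymetrix mouse gene arrays, 1 per sample. Per the labels' protocols, RNA came from a column kit and was labelled with biotin. The deposited values are 1 linear intensity per probe set, made by the authors with a background correction, summary and scaling not given in the sources used here. Of the probe sets with values, 21789 had 1 gene symbol, 1621 several and 5443 none in GEO's platform annotation.

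Log2 intensities were quantile normalized over all arrays together. The probe set with the highest mean stood for a gene. Comparisons with replicates used lmFit and eBayes of limma 3.58.1 (R 4.3.3; two-sided, Benjamini-Hochberg adjusted p under 0.05 over 19938 genes), tested first on simulated data. No filter on dim genes was used, since it would admit genes through the group where they are high. Single-array contrasts have counts of genes at least 2-fold apart and no test. The number of arrays limits the precision.

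Genes named by rule are those past the threshold, the 6 largest differences per comparison and those at least 2-fold apart in single-array contrasts. Others, such as Ifit1, Irf7 and Mx1 for RTCs or Ifit2 for 4-OHT, were named after their values were seen. The genes, lists and tests were chosen with earlier results of these data known. RTC and derivative arrays share lines of origin by their labels, and deviations of same-line arrays correlated at 0.09 and 0.03. Arrays of different lines gave -0.1 to 0.1. With 2 derivative arrays, whose deviations mirror each other, these values cannot show whether line of origin matters. Alternatives were the values as deposited, median centring, a filter at the array median, means of probe sets, an intensity trend, blocks and leaving out each array. Of the 72 other pathway genes, 1 (1.39%) was at least 2-fold higher in organoids with 4-OHT, against 1.7% of all genes. In S33-ES cells with dox 3 (4.17%) were at least 2-fold lower, against 1.32% of all genes. In Apc Min/Min ESCs 3 (4.17%) were at least 2-fold lower, against 3.55% of all genes. In MEFs with 4-OHT 0 were called, as were 0% of all genes.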

Additional observations from a re-analysis of the deposited data

Results flagged for a closer look

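With minus without dox, 13 of the 34 genes had opposite signs in S33-ES cells and S33-MEFs, against 50.2% of all genes, at 1 array per arm. In 6 of them the difference was at least 2-fold in 1 of the cell types, as in 2.89% of all genes. The difference between the dox effects was not tested. Xaf1 differed by 1.56 in S33-ES cells and by -1.30 in S33-MEFs, a gap of 2.85. Stat2 differed by 0.47 in S33-ES cells and -1.54 in S33-MEFs, a gap of 2.01. Values in the same order follow for 4 more genes. For Usp18 the gap was 1.98 (0.66 and -1.32), and for Ifit1 it was 1.96 (0.12 and -1.84). Sting1 had a gap of 1.72 (0.33 and -1.39) and Irf9 of 1.57 (0.46 and -1.11).

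Ifitm1 differed by 4.62 with 4-OHT in organoids, and by -0.80 and -0.16 in the #45 MEF pairs. The gap to the mean of the MEF pairs was 5.09, which was not tested because the organoids had 1 array per arm.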

How the results depend on the processing

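With the arrays as deposited, 3 of the 34 genes were called for RTCs against ESCs in place of 6. Of all genes, 1.89% were called in that fit, against 4.01% in the one reported. In S33-MEFs 3 genes in place of 5 lay above all pluripotent arrays, an alternative chosen after seeing the data. The cause was not tested. Leaving out 1 array at a time gave 1 to 6 calls for RTCs against ESCs, 0 to 2 for RTCs against derivatives and 6 to 30 for MEFs against ESCs. All fibroblast against all pluripotent arrays called 27, with 54.4% of all genes called in that fit and 40.7% in the one reported. For MEFs with against without 4-OHT, differences turned sign when an array was left out. Stat2 gave -0.73 to 1.31, Ifit1 -0.64 to 1.35, Ifit3 -0.63 to 1.44, Oasl2 -0.69 to 1.24 and Mx1 -2.51 to 1.30. These fits ignore the pairs, so leaving out 1 array brings the gap between the pairs into the difference. The sign changes thus cannot show how stable the 4-OHT difference is. In 2 #45 MEF pairs that share only a number, same-numbered arrays deviated together (correlation 0.77); with that number as a replicate block 0 of the 34 genes and 31 of all genes were called. Line of origin as a replicate block kept 1 call for RTCs against derivatives, while calls over all genes were 67 in place of 192. Total counts in the 4 single-array contrasts and the other settings stayed within 1.5 times of those reported, but their split did not always: as deposited, organoids with 4-OHT had 2 genes higher and 3 lower in place of 4 and 0, and median centring gave 3 higher and 2 lower for RTCs against ESCs in place of 5 and 1. The single arrays, and dim signals near the background, limit what small differences can show.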
